A study of Mus musculus with 3 samples.

Results

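The 6 genes described here, *Ocm*, *Pvalb*, *Calb1*, *Calb2*, *S100a1* and *S100b*, encode EF-hand calcium-binding proteins and were taken by symbol from the 32285 genes of the count tables. All 6 had UMIs in these cochlear cells. EF-hand proteins bind calcium in short loops flanked by helices. Oncomodulin (*Ocm*), parvalbumin (*Pvalb*), calbindin (*Calb1*) and calretinin (*Calb2*) are mobile buffers that take up calcium as it enters a cell and so limit how far and for how long the signal spreads. S100A1 and S100B are small dimeric proteins that bind other proteins when calcium is bound. In the inner ear, oncomodulin is known as a protein of outer hair cells, and antibodies to parvalbumin and calretinin are used to stain hair cells and spiral ganglion neurons.

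Single cells were dissociated from the cochleae of untreated wild-type mice of the strain labelled C57/B6 (C57BL/6J in the methods), at P14 (postnatal day 14, around the onset of hearing) and P28 (postnatal day 28). One library was made at P14 and 2 at P28, each from the pooled 14 ears of 7 mice, so that a library and not a mouse is the replicate. Part of the basal turn was lost in the dissection according to the study's methods, so the cells came mainly from the upper basal to the apical turns. Cells with 200 to 6000 detected genes and at most 15% mitochondrial UMIs were kept, which left 1662 of 2513 barcodes at P14 and 5651 of 11948 and 7065 of 18196 at P28.

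Kept cells had a median of 2477 UMIs at P14 and of 2421 and 2037 UMIs at P28. Mitochondrial UMIs made up a median of 6.24% of a P14 cell and of 10.0% and 10.8% of a P28 cell. The libraries shared 4, 7 and 10 kept cell barcodes pairwise. Doublet calling marked 3, 0 and 1 cells, too few to be usable, so doublets were left in and the cells with the top 5% of doublet scores were removed only as an alternative. Clusters were built without the 6 genes and named from marker genes. Outer hair cell-like (OHC-like) cells numbered 277 at P14 and 365 and 284 at P28, and inner hair cell-like (IHC-like) cells 60, 113 and 76. Spiral ganglion neuron-like (SGN-like) cells were found at P28 only, with 334 and 296 cells. All 6 OHC markers had UMIs in OHC-like cells and all 7 IHC markers in IHC-like cells of every library. The classes were named from these markers, which also had UMIs in other classes, so this is no check of the names. The cluster with most Schwann and satellite glial (SC/SGC) markers had *Mbp* and *Mobp* among its leading genes at P14 and held there *Mog*, a gene of oligodendrocytes, at 1280.2 CPM (the UMIs of a gene scaled to the same total in every sum of cells) against 0 at P28, so its 27 cells go against the label and are called the *Mog*-led cells below.

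The members fall into related pairs, and the loops that bind calcium show how close the pairs are. The coding sequences of *Ocm* and *Pvalb* were 60.6% identical, those of *Calb1* and *Calb2* 63.7%, and those of *S100a1* and *S100b* 65.6%. Genes of different pairs were 27.1% (*Calb2* and *S100b*) to 49.1% (*Ocm* and *S100a1*) identical in the same alignment. A search of the translated coding sequences for the canonical loop pattern found 2 loops in *Ocm*, 2 in *Pvalb*, 4 in *Calb1*, 5 in *Calb2* and 1 each in *S100a1* and *S100b*. Loops 1 and 2 of *Ocm* and *Pvalb*, the parvalbumin pair, are shown to let the related buffers be compared, from the GENCODE M21 transcripts, 5′ to 3′, with capitals for the bases that differ within a pair.
Ocm loop 1: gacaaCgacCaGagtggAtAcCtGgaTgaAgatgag
Pvalb loop 1: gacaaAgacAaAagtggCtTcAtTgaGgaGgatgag
Ocm loop 2: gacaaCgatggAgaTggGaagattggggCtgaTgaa
Pvalb loop 2: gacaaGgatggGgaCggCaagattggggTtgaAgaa
The paired loops differed at 9 and 6 of 36 bases. Reads of this 3′ assay fall near the transcript end, where no pair of the 6 genes shared a run of more than 10 bases in the last 300 bases, so the counting could separate the members.

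On GRCm38 (mm10), *Ocm* lies on chromosome 5 (144019804 to 144026670, minus strand), *Pvalb* on chromosome 15 (78191114 to 78206400, minus strand) and *Calb1* on chromosome 4 (15881264 to 15908064, plus strand). *Calb2* lies on chromosome 8 (110137502 to 110168210, minus strand), *S100a1* on chromosome 3 (90511034 to 90514392, minus strand) and *S100b* on chromosome 10 (76253853 to 76261159, plus strand). Only *S100b* overlaps another annotated gene, *Dip2a* on the opposite strand.

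**Figure D1:**
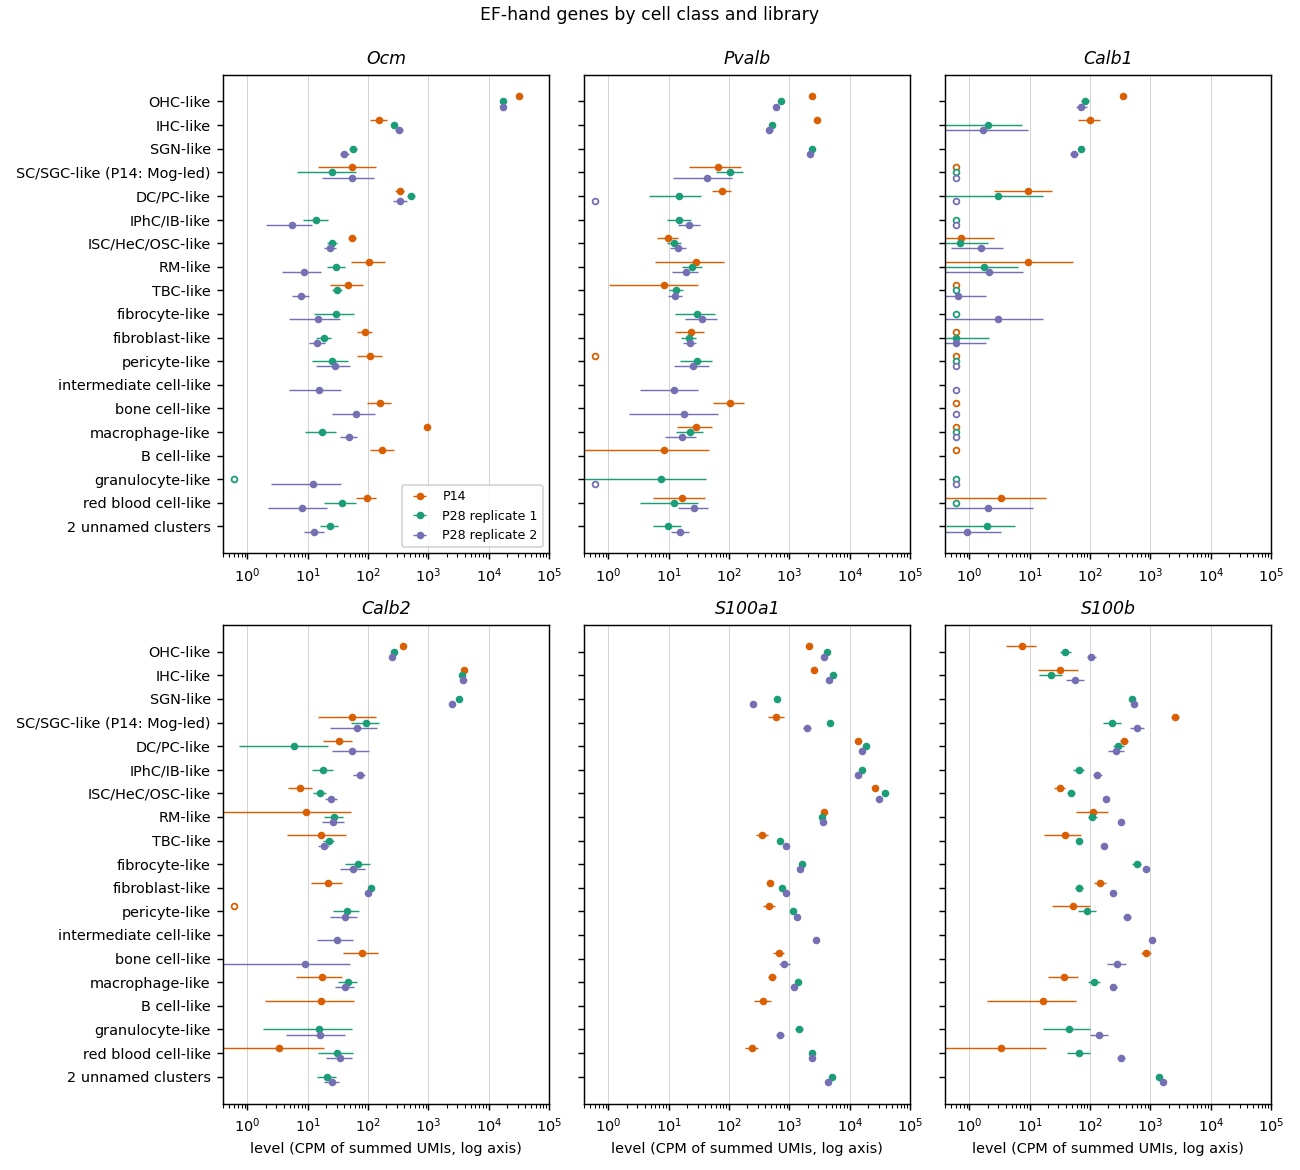
Level of each EF-hand gene in each cell class and library, as CPM of summed UMIs (log axis). Bars are exact Poisson 95% intervals, open points at the left edge are levels of 0, and the row with 2 unnamed clusters pools them. *Ocm* stands out in OHC-like cells, *Calb2* in IHC-like and SGN-like cells, *Pvalb* in all of these, and *S100a1* in supporting and sulcus cells.

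Together the 6 genes took 3.66% of all UMIs of OHC-like cells at P14 and 2.24% and 2.23% at P28. Most of these OHC-like UMIs were *Ocm*. The inner sulcus, Hensen and outer sulcus (ISC/HeC/OSC-like) cells reached a like share, 2.63% at P14 and 3.82% and 3.08% at P28, and there almost all were *S100a1*. UMIs count captured 3′ ends, 1 per molecule, so levels carry no length term, but capture can differ between genes.

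*Ocm*, the β-parvalbumin of the outer hair cell, was the most abundant member in OHC-like cells. Its level in OHC-like cells was 31352 CPM at P14, against 17146 and 17484 CPM at P28 (17315 ± 239, SD, n = 2). IHC-like cells held 151 CPM at P14, against 270.3 and 323 CPM at P28. The 2 classes of hair cells were far apart in each of the 3 libraries, and *Ocm* was higher in OHC-like cells by 6.52 ± 0.34 on the log2 scale (SE, n = 3 libraries, edgeR adjusted p = 1.3e-06). Against cells other than hair cells the log2 difference was 8.80 ± 0.60 (edgeR adjusted p = 0.00234). Of the 6 members, 2 were called higher in OHC-like than in IHC-like cells, where 16.8% of the 9500 genes tested were, and 1 was called lower, against 17.2% of all genes.

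Free RNA gives UMIs in cells that do not express a gene, and red blood cell-like cells, which should not make *Ocm*, serve as its measure here. They held 94.5 CPM at P14, against 36.4 and 8.08 CPM at P28. In cells thinned to 1000 UMIs, all OHC-like cells had at least 1 *Ocm* UMI, against 9.68% of IHC-like cells at P14 and 19.2% and 19.4% at P28. The share in red blood cell-like cells was 10.2% at P14 and 5.06% and 0% at P28 (0 of 175 cells, with an exact binomial 95% upper limit of 2.09%, for counting error only). IHC-like cells had medians of 1026, 9310 and 8008 UMIs in the 3 libraries, and red blood cell-like cells 4982, 3683 and 2586, and only 31 of the 60 IHC-like cells at P14 were deep enough to be thinned. The IHC-like share was thus not above the red blood cell-like share at P14, and was above it at P28. Red blood cell-like cells are a single stand-in class, and the part of free RNA in the *Ocm* of IHC-like cells was not tested.

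The thinned OHC-like cells carried a median of 31 *Ocm* UMIs per 1000 at P14, with quartiles of 25 and 38. At P28 the median was 18 in both libraries, with quartiles of 14 and 22 and of 13 and 21. The P28 libraries overlaid each other, and the P14 cells lay mostly above them. The P14 level was 1.81 times the P28 mean in the full sums. With 1 library at P14 this difference has no replicate check and no test. The spread of *Ocm* over OHC-like cells was wider than Poisson sampling gives, with a variance 4.01 times the mean at P14 and 2.13 and 2.29 times at P28.

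Among the OHC-like clusters at P14, *Ocm* was at 33238 CPM in 197 cells, at 29066 CPM in 49 cells and at 7884 CPM in 31 cells with a median of 917 UMIs. At P28 the OHC-like clusters lay between 16980.5 and 18430.4 CPM. The shallow P14 cluster was led by *Dytn* and *Ighm* and held *Pvalb* at 503 CPM, also the lowest of the P14 OHC-like clusters.

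**Figure D2:**
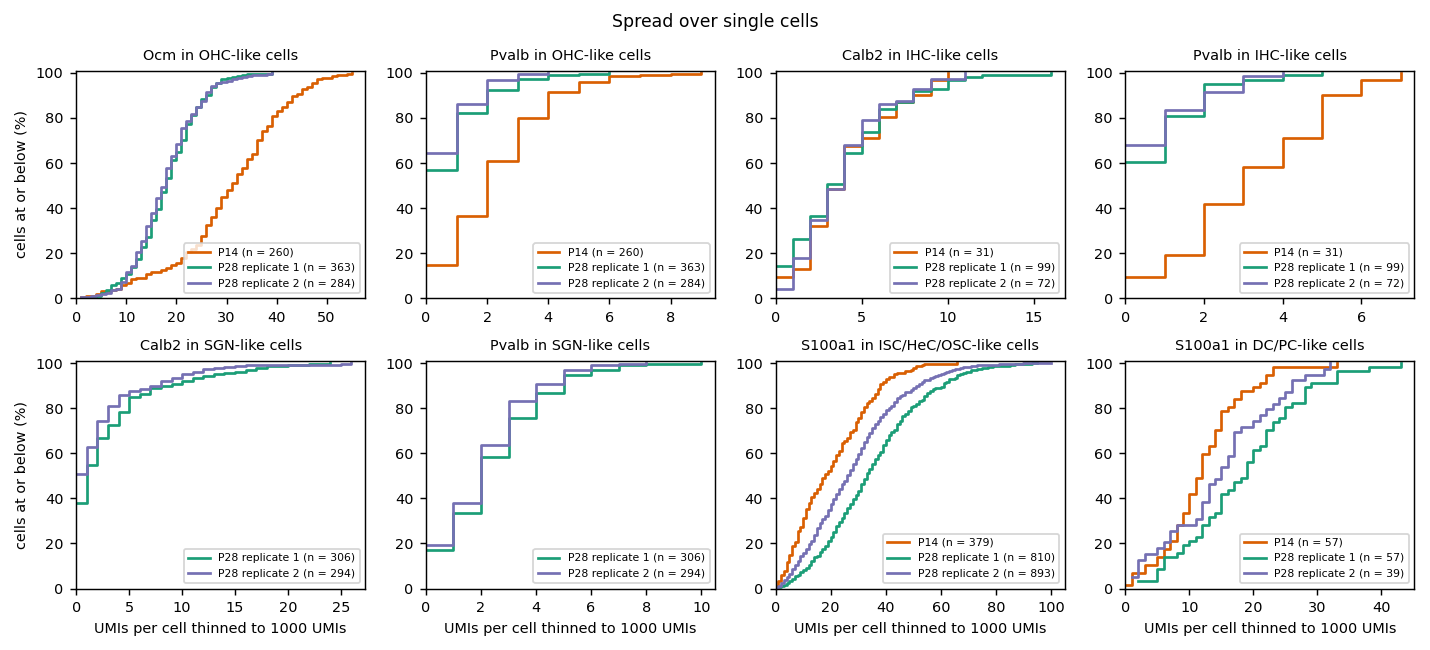
Cumulative share of cells (y axis, percent) at or below a number of UMIs per cell thinned to 1000 UMIs (x axis), for 8 pairs of gene and class, 1 line per library. The P14 line lies to the right for *Ocm* and *Pvalb* in hair cells and to the left for *S100a1* in ISC/HeC/OSC-like cells, while the 3 lines of *Calb2* in IHC-like cells run together.

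*Pvalb*, the α-parvalbumin that fast-spiking neurons and muscle use as a slow-onset buffer, was shared by both kinds of hair cell. OHC-like cells held 2378 CPM at P14, against 722 and 604 CPM at P28. The IHC-like levels were 2856 CPM at P14, against 509.7 and 468 CPM at P28. In both classes the P14 library was above both P28 libraries, 3.59 times their mean in OHC-like and 5.85 times in IHC-like cells, again with no test. Thinned to 1000 UMIs, 85.0% of OHC-like cells had a *Pvalb* UMI at P14 and 43.3% and 35.6% at P28, and 90.3% of IHC-like cells at P14 against 39.4% and 31.9% at P28. The share in red blood cell-like cells was 2.04%, 0% and 1.71%, far below the shares in hair cells.

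The *Pvalb* difference between OHC-like and IHC-like cells was 0.34 ± 0.17 on the log2 scale (SE, n = 3 libraries) and did not pass the test (edgeR adjusted p = 0.16). The order of the 2 classes was not the same in all libraries, IHC-like above OHC-like at P14 and below at P28. The P28 means were 2304 ± 96.9 CPM in SGN-like, 663 ± 83.0 CPM in OHC-like and 489 ± 29.8 CPM in IHC-like cells (SD, n = 2), and their ranges did not overlap. Without the P14 library *Pvalb* was called higher in OHC-like cells, by 0.56 ± 0.09. That fit, on 1 residual degree of freedom, called 2364 of 9990 genes higher and 2556 lower, so no p is given.

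*Calb1*, calbindin-D28k, was the rarest buffer in hair cells. OHC-like cells held 350.2 CPM at P14, against 83.0 and 72.1 CPM at P28. IHC-like cells held 99.0 CPM at P14, against 2.06 and 1.68 CPM at P28. The P14 value of IHC-like cells rested on 25 UMIs in 2 of the 60 cells, and the P28 values on 2 UMIs and 1 UMI. *Calb1* was higher in OHC-like cells by 3.11 ± 0.45 on the log2 scale (SE, n = 3 libraries, edgeR adjusted p = 0.000532). It was also higher there than in cells other than hair cells, by 4.13 ± 1.07 (edgeR adjusted p = 0.0328). Both calls depend on the fit: the first gave an adjusted p of 0.154 in edgeR without the term for the library, and the second gave 0.0714 without P28 replicate 1 and 0.0679 without P28 replicate 2.

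At P14 *Calb1* was unevenly spread among OHC-like cells. The cluster of 49 deep cells, with a median of 10258 UMIs, held it at 858 CPM and the cluster of 197 cells at 140.1 CPM. These 49 cells carried 479 of the 657 *Calb1* UMIs of the P14 OHC-like cells. At P28 no such split was seen, with 88.98 and 70.6 CPM in the deeper OHC-like cluster and 80.7 and 72.9 CPM in the other. The P14 level was 4.51 times the P28 mean with all OHC-like cells and 1.77 times when cells with over 3000 genes or over 15000 UMIs were left out.

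*Calb2*, calretinin, was the leading buffer of IHC-like cells and the member whose level varied least with age there. It stood at 3819 CPM at P14, against 3619.7 and 3801 CPM at P28 in IHC-like cells. In OHC-like cells it stood at 378 CPM at P14, against 266 and 252 CPM at P28. Every IHC-like value was above every OHC-like value, and *Calb2* was lower in OHC-like cells by −3.53 ± 0.15 on the log2 scale (SE, n = 3 libraries, edgeR adjusted p = 6.29e-07). IHC-like cells thinned to 1000 UMIs carried a median of 4 *Calb2* UMIs at P14 and of 3 and 4 at P28. The OHC-like levels were above those of red blood cell-like cells, which were 3.38 CPM at P14, against 30.4 and 34.4 CPM at P28.

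In the comparison of hair cells with the pool of all other cells, the pool held SGN-like cells at P28 and none that could be named at P14. The pool was at 14.3 CPM of *Calb2* at P14 and at 541 and 411 CPM at P28, and at 21.3 CPM of *Pvalb* at P14 and at 398 and 354 CPM at P28. In the comparison of OHC-like cells with this pool, 2 members were called higher (24.0% of 13007 genes) and 1 lower (30.1%). In that of IHC-like cells, 1 member, *Calb2*, was called higher (13.3% of 12673 genes) by 4.07 ± 1.07 (edgeR adjusted p = 0.0263), and 2 were called lower (22.5%). Not called in OHC-like cells were *Pvalb*, at 2.34 ± 1.46, and *Calb2*, at 0.61 ± 1.39 (edgeR adjusted p = 0.236 and 0.731). *Pvalb* in IHC-like cells, at 1.66 ± 1.37, was not called either (edgeR adjusted p = 0.387).

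An alternative chosen after seeing the data left the SGN-like cells out of the pool. It called 4 members higher in OHC-like cells (24.2% of 12944 genes), *Pvalb* by 5.64 ± 0.44 (edgeR adjusted p = 0.000515) and *Calb2* by 3.2 ± 0.48 (edgeR adjusted p = 0.00308) among them. It called 3 higher in IHC-like cells (17.5% of 12583 genes), with *Calb2* at 6.73 ± 0.38 and *Pvalb* at 5.24 ± 0.47 (edgeR adjusted p = 9.53e-07 and 1.53e-05).

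Neither S100 gene was called higher in hair cells. The P14 level of *S100a1*, a calcium sensor best known from heart muscle, was 2086 CPM in OHC-like and 2559 CPM in IHC-like cells. At P28 the OHC-like levels were 4157 and 3744 CPM and the IHC-like levels 5182 and 4443 CPM. The 2 classes differed by −0.15 ± 0.11 on the log2 scale (edgeR adjusted p = 0.336). At P28 the IHC-like sums also held markers of inner phalangeal and border (IPhC/IB) cells, at 3630 and 3316.5 CPM, against 604 and 570 CPM in OHC-like cells. IPhC/IB-like cells themselves held *S100a1* at 15787 and 13555 CPM. The part of supporting-cell RNA in the hair cell levels of *S100a1* was not tested. IHC-like cells were lower than the pool of other cells by −1.58 ± 0.41 (edgeR adjusted p = 0.0248, and 0.139 without P28 replicate 1). The OHC-like difference of −1.58 ± 0.49 missed the threshold (edgeR adjusted p = 0.0519) but passed it in 12 of 14 alternatives. Most *S100a1* of this pool lay in ISC/HeC/OSC-like cells. They held 72900 of its 79995 UMIs at P14, and 165345 of 215929 and 98440 of 141016 at P28. By level, IHC-like cells ranked 4 of 13 classes at P14 and 4 of 16 at P28, and OHC-like cells 5 and 6. The hair cells were thus not below most other classes.

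Red blood cell-like cells held *S100a1* at 236 CPM at P14, against 2359 and 2360.04 CPM at P28, where 3 cells held 55.1% of the 777 UMIs of replicate 1 (337 of them in 1 cell) and 2 cells held 322 of the 1168 UMIs of replicate 2. Other classes at P28 stood lower, with 620.4 and 250.4 CPM in SGN-like cells and 746 and 877 CPM in fibroblast-like cells. The P28 mean of *S100a1* was 9.99 times the P14 level in red blood cell-like cells, but 1.69 times in fibroblast-like, 2.46 times in macrophage-like and 2.71 times in pericyte-like cells. It was 1.89 times the P14 level in OHC-like and 1.88 times in IHC-like cells. The part of free RNA in these differences was not tested.

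*S100b* was low in hair cells. OHC-like cells held 7.46 CPM at P14, against 38.9 and 105 CPM at P28, and red blood cell-like cells 3.38 CPM and 66.8 and 329 CPM. At P28 the hair cell levels lay below the red blood cell-like ones, which differed several-fold between the replicates. *S100b* was lower than in the pool of other cells by −2.74 ± 0.47 in OHC-like cells (edgeR adjusted p = 0.0122) and by −3.12 ± 0.30 in IHC-like cells (edgeR adjusted p = 0.000527). The first call was lost without the term for the library (adjusted p = 0.062 in edgeR).

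**Figure D3:**
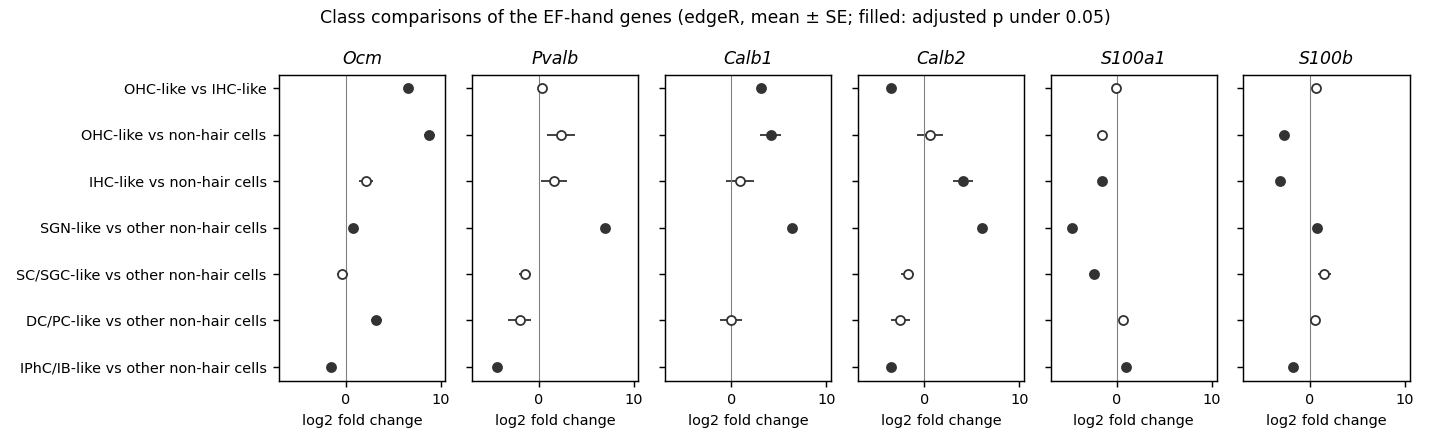
Fitted log2 fold changes of the EF-hand genes in 7 class comparisons (x axis) with their standard errors; filled points passed an adjusted p of 0.05. *Calb1* was not tested for SC/SGC-like cells and is left out for IPhC/IB-like cells, which held none. Only *Ocm*, *Calb1* and *Calb2* have filled points in the top row, the comparison of OHC-like with IHC-like cells.

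At P28 the SGN-like cells carried *Pvalb*, *Calb2* and, far below them, *Calb1*. *Pvalb* stood at 2372 and 2235 CPM and *Calb2* at 3156 and 2479 CPM in the 2 libraries. *Calb1* stood at 70.7 and 54.6 CPM, close to the OHC-like level, and the intervals of these 2 classes overlapped. Of the members, 5 were called higher in SGN-like cells than in other cells that are no hair cells (37.2% of 14933 genes) and *S100a1* was called lower (43.6%). The log2 differences were 6.97 ± 0.12 for *Pvalb*, 6.06 ± 0.12 for *Calb2* and 6.34 ± 0.21 for *Calb1* (SE, n = 2 libraries). The fits on 2 libraries had 1 residual degree of freedom and called many genes, so the log2 differences are given without p. Their SEs come from these fits and do not measure the spread between the 2 libraries.

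The other higher calls in SGN-like cells, those of *S100b* and *Ocm*, were small, that of *Ocm* also fragile, and *S100a1* was called lower. *S100b* was higher by 0.74 ± 0.11, with 493 and 537 CPM, against 194 and 412 CPM in the other cells. *S100a1* was lower by −4.73 ± 0.12, with 620.4 and 250.4 CPM, against 12055 and 7755 CPM. *Ocm* was called higher by 0.79 ± 0.12, yet stood at 56.4 and 40.4 CPM, with 51.8% and 76.3% of its UMIs in 3 cells of each library. Without the cells of highest doublet score its difference was −0.14.

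*Calb2* varied more over single SGN-like cells than *Pvalb*, relative to its mean. At 1000 UMIs per cell, *Pvalb* had a variance of 1.40 and 1.26 times its mean, and *Calb2* of 6.78 times in both libraries. *Pvalb* and *Calb2* with no *Calb1* UMI were found in 50.7% of the thinned cells of P28 replicate 1 and in 37.8% of P28 replicate 2. At full depth 100 of 334 and 80 of 296 SGN-like cells had a *Calb1* UMI. A thinned cell with none can therefore still hold *Calb1*. *Pvalb* alone of the 3 genes was found in 27.5% and 38.8%, and *Calb2* alone in 8.17% and 6.80%. In the largest SGN-like cluster, of 168 and 219 cells, 34.5% and 42.9% of the cells had no *Calb2* UMI after thinning and 23.2% and 17.4% had 5 or more. The full counts of these cells gave *Calb2* levels of 441 and 402 CPM in the former and 10461 and 8676 CPM in the latter. *Pvalb* differed little between them, with 2412 and 2263 CPM against 2364 and 2265 CPM.

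Cells with much *Calb2* had little *Lypd1*, a gene used to mark one subtype of type I neuron. *Lypd1* stood at 4836 and 4281 CPM in the cells without a thinned *Calb2* UMI and at 7.28 and 0 CPM in those with 5 or more (5 UMIs and 0 UMIs). The cells with 1 to 4 *Calb2* UMIs were in between for *Lypd1*, at 763 and 880.0 CPM. *Calb1* stood at 98.6 and 85.5 CPM in them and at 43.4 and 34.7 CPM in the cells without *Calb2*. In the cells with 5 or more *Calb2* UMIs it stood at 81.5 and 57.4 CPM (56 and 30 UMIs). The cells were grouped by *Calb2*, so its own levels are a description and no test was made. The groups were of like depth, with median UMIs of 19367 and 13679 in the cells without *Calb2* and 19064 and 14558 in those with most.

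Among the smaller SGN-like clusters, the 8 and 16 cells of the one led by *Prune2*, *Rph3a* and *Gldn*, with *Ngfr* among its leading genes, had the highest *Pvalb*, 3786 and 2969 CPM, with *Calb2* at 139 and 9.22 CPM and *Calb1* at 0. A cluster of 18 and 23 cells rich in long noncoding RNAs such as *Meg3* and *Miat* was low in both, with *Pvalb* at 216 and 296 CPM and *Calb2* at 433 and 465 CPM. A shallow cluster with a median of 1639 and 2712 UMIs had *S100a1* at 5082 and 1744 CPM, against 167 and 159 CPM in the largest cluster.

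**Figure D4:**
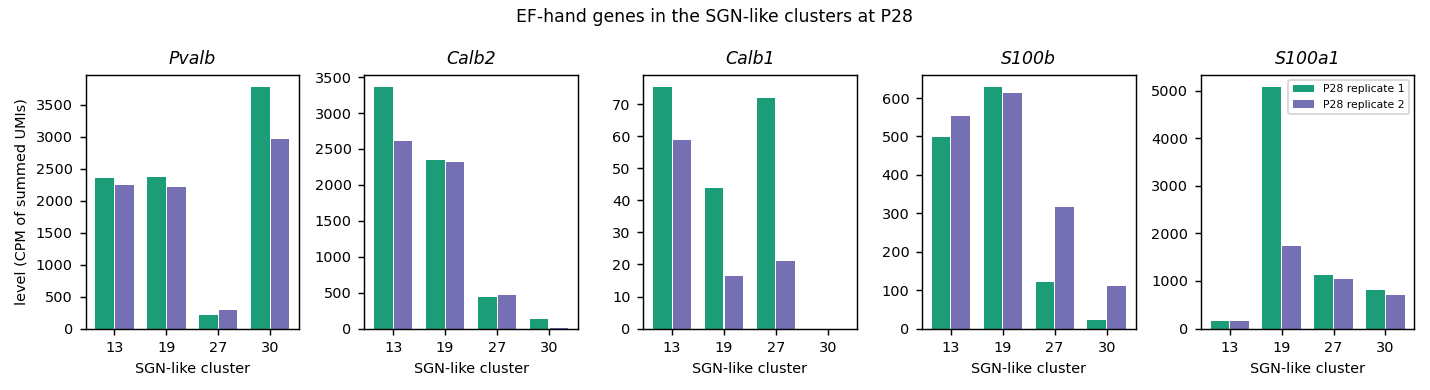
Levels of 5 EF-hand genes (CPM of summed UMIs, linear axes from 0) in the 4 SGN-like clusters at P28, 1 bar per library and no error bars. Cluster 13 is the largest, 19 the shallow cluster, 27 the one rich in long noncoding RNAs and 30 the *Ngfr* cluster, where *Pvalb* is highest and *Calb2* near 0.

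In supporting and sulcus cells *S100a1* was by far the most abundant member. ISC/HeC/OSC-like cells held 26233 CPM at P14, against 38109 and 30597 CPM at P28. Deiters and pillar (DC/PC-like) cells held 13483 CPM at P14, against 18256 and 15766 CPM at P28. Inner phalangeal and border (IPhC/IB-like) cells, named at P28 only, held 15787 and 13555 CPM. Every one of these values was above the hair cell levels. For the pooled classes, the order ISC/HeC/OSC-like over DC/PC-like over IPhC/IB-like held in both P28 libraries, although the last 2 overlapped in their ranges. A P28 cluster of 30 and 93 ISC/HeC/OSC-like cells stood at 15694 and 11380 CPM, below the DC/PC-like levels. The other P28 clusters of that class stood above them. The spread over single ISC/HeC/OSC-like cells was wide, with a variance 9.16 to 10.3 times the mean at 1000 UMIs.

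*S100a1* was higher in IPhC/IB-like cells than in other cells that are no hair cells, by 0.98 ± 0.10 (SE, n = 2 libraries, P28 only). At P28 these cells held 15787 and 13555 CPM, against 9811 and 6239 CPM in their pool. In DC/PC-like cells the difference of 0.66 ± 0.27 (n = 3 libraries) did not pass (edgeR adjusted p = 0.127). DC/PC-like cells held 13483 CPM against 15226 CPM in their pool at P14. At P28 they held 18256 against 10074 CPM and 15766 against 6543 CPM. The 2 fits rest on unlike libraries and do not rank the 2 classes. The IPhC/IB call did not hold when each library was clustered alone (edgeR adjusted p = 0.553) or with 30% mitochondrial UMIs allowed (0.17). In that comparison 1 member was called higher (20.9% of 14787 genes) and 5 lower (27.6%). *Pvalb* and *Calb2* were lower by −4.38 ± 0.15 and −3.49 ± 0.13. *Calb2* stood at 17.9 and 72.2 CPM in the 2 libraries, against 578 and 430 CPM in the pool. In replicate 2, 3 cells held 46.8% of its 79 UMIs. The SE comes from the fit, with 1 residual degree of freedom, and does not measure this spread between libraries. Without the SGN-like cells in the pool the log2 differences of *Pvalb* and *Calb2* were 0.078 ± 0.24 and 0.095 ± 0.16 and neither passed. *Calb1* had no UMI in IPhC/IB-like cells, which with a floor of 3 counts per library allows up to 2.15 and 2.74 CPM. Cells that were neither hair cells nor SGN-like held 0.564 and 0.830 CPM, under that floor, so the *Calb1* call rests on the SGN-like cells of the pool.

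DC/PC-like cells had 1 member called higher, *Ocm* (7.59% of 12155 genes), and none lower (11.9%). DESeq2 called none lower either. By unadjusted p in edgeR 1 member, *Calb2*, was under 0.05 for a lower level, where 2382 of 12155 genes were. *Ocm* stood at 332 CPM at P14, against 519 and 340.4 CPM at P28, a log2 difference of 3.23 ± 0.57 (edgeR adjusted p = 0.00433). These UMIs lay in few cells. The 3 cells with most held 83.9% of the 143 *Ocm* UMIs at P14, 97.7% of 176 and all 56 at P28. With cells of over 3000 genes or over 15000 UMIs left out, the difference was −0.98 and no longer called, and the call was also lost without the term for the library (edgeR adjusted p = 0.0573). A like case were the macrophage-like cells at P14, where 1 cell held 312 of 336 *Ocm* UMIs.

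*S100b*, the glial S100 protein that pathologists use to stain Schwann cells, was highest at P14 in the *Mog*-led cells, at 2547 CPM (191 UMIs). The SC/SGC-like cells at P28 held 236 and 611 CPM, beside 66.8 and 329 CPM in the red blood cell-like cells of the same libraries. The highest level at P28 was in an unnamed cluster led by *Fxyd2*, *Kcnk2* and *Gjb2*, at 1718 and 1983 CPM. Intermediate cell-like cells, the pigment cells of the stria, held 1060 CPM in the 1 library where they were named. Fibrocyte-like cells held 589.6 and 841 CPM.

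In the comparison of SC/SGC-like with other cells that are no hair cells, 5 members could be tested. None was called higher (1.84% of 12229 genes) by edgeR or DESeq2. By unadjusted p in edgeR 1 member, *S100b*, was under 0.05 for a higher level, where 547 of 12229 genes were. Its log2 difference was 1.49 ± 0.68 (edgeR adjusted p = 0.363). *S100a1* was called lower (1.15%), by −2.46 ± 0.56 (edgeR adjusted p = 0.0158). It stood at 600.1 CPM in the *Mog*-led cells and at 4735 and 1950.2 CPM at P28, where 3 cells held 61.9% of the 764 UMIs of replicate 1 (299 in 1 of 71 cells) and 46.2% of the 182 UMIs of replicate 2. This call was lost without either P28 replicate (edgeR adjusted p = 0.0984 and 0.0561), without the term for the library (0.233), with 30% mitochondrial UMIs allowed (0.235) and with 10 UMIs required in every sum (0.18). DESeq2 did not call it either (adjusted p = 0.06). Most *S100a1* of this pool, too, lay in ISC/HeC/OSC-like cells. Without the P14 library 3 members were called lower, where 871 of 14654 genes were. Simulated 4-fold changes were recovered in 24.5% of genes in this comparison, the lowest share of the 7. With SGN-like cells left out of the pool, an alternative chosen after seeing the data, *S100b* was called higher by 1.57 ± 0.48 and *Pvalb* by 1.93 ± 0.53 (edgeR adjusted p = 0.0255 and 0.00792), where 3.37% of 12001 genes were. This *Pvalb* call rested on 5 UMIs in the *Mog*-led cells and on 17 and 4 UMIs at P28. Of the 17 UMIs, 58.8% lay in 3 cells. The 3 sums of this class mix the *Mog*-led cells of P14 with the cells of P28. In the pool with SGN-like cells, *S100b* stood at 2547 against 93.9 CPM at P14, but at 236 against 242 CPM and 611 against 430.3 CPM in the P28 libraries.

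The genes whose levels were most like those of each member over 45 sums of class and library, from 18 classes, are given as a description, since the sums share libraries and classes. *Ocm* was most like *Chrna10* (r = 0.905), *Slc26a5* (0.89) and *Strc* (0.887), which encode a nicotinic receptor subunit, prestin and stereocilin of outer hair cells. *Chrna10* and *Slc26a5* were among the markers that named OHC-like cells, and *Fbxo2*, given below, among those of ISC/HeC/OSC-like cells. These matches are therefore partly set by the naming of the classes. *Pvalb* and *Calb2* were both most like neuronal genes, *Pvalb* with *Brsk2*, *Camk2n2* and *Srrm3* (r = 0.929, 0.926 and 0.924) and *Calb2* with *Camk2n2*, *Dnm1* and *Unc80* (r = 0.922, 0.915 and 0.899). *Calb1* was closest to *Cpne9*, *Galnt13* and *Dbndd1* (r = 0.919, 0.879 and 0.876), *S100a1* to *Skp1a*, *Rab25* and *Fbxo2* (r = 0.919, 0.914 and 0.909). *S100b* had no close match, with r = 0.715 for *Gnai1*, 0.702 for *Mt3* and 0.691 for *Phlda3*.

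Other EF-hand genes also separated the 2 kinds of hair cell. Of 14 other S100 genes, 6 could be tested between OHC-like and IHC-like cells and 5 were called lower in OHC-like cells (17.2% of 9500 genes), with a median log2 difference of −1.99 against 0.05 over all genes tested. The named ones were *S100a6* (−3.80 ± 0.41), *S100a4* (−3.36 ± 0.65, from 40 UMIs) and *S100a10* (−2.26 ± 0.24), with edgeR adjusted p = 7.94e-05, 0.00291 and 6.96e-05. *S100a6* stood between 0.533 and 28.1 CPM in the OHC-like cells of the 3 libraries. In their IHC-like cells it stood between 119 and 219 CPM, with no overlap. The IHC-like sums also held more of the 5 IPhC/IB markers, together 3630 and 3316.5 CPM at P28, against 604 and 570 CPM in OHC-like cells. IPhC/IB-like cells held 5999.8 and 5716 CPM. Of the 9 other S100 genes tested in IPhC/IB-like cells, 5 were called higher (20.9% of 14787 genes) and 3 lower (27.6%). The part of supporting-cell RNA in the S100 differences was not tested.

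Of 21 proteins related to calmodulin, calbindin or calcineurin B, 11 were tested, 4 were called higher (16.8% of 9500 genes) and 4 lower (17.2%) in OHC-like cells, with a median log2 difference of 0.09. *Necab2*, a neuronal calcium-binding protein, was higher by 3.36 ± 0.58 and *Efhd2*, an actin-binding EF-hand protein, by 3.36 ± 0.36 (edgeR adjusted p = 0.00163 and 8.15e-05). At P14 *Necab2* stood at 55.4 CPM in OHC-like and 27.7 CPM in IHC-like cells. At P28 *Necab2* stood at 49.0 CPM in OHC-like cells of both libraries, against 1.03 and 1.68 CPM in IHC-like cells. These IHC-like values are near the floor. In the same sums, 2.06 CPM was 2 UMIs in replicate 1 and 1.68 CPM was 1 UMI in replicate 2. *Efhd2* in OHC-like cells stood at 1123 CPM at P14, against 66.8 and 67.8 CPM at P28. *Calml4*, a calmodulin-like light chain of stereocilia, was higher by 1.15 ± 0.22 (edgeR adjusted p = 0.00303). Its levels were close at P14, 1291 CPM in OHC-like and 1086 CPM in IHC-like cells. They were further apart at P28, 1381 and 1349 CPM against 517 and 531 CPM. *Cabp1*, which regulates voltage-gated calcium channels, was lower by −5.34 ± 0.35 and *Cabp7* by −2.98 ± 0.30 (edgeR adjusted p = 4.81e-06 and 5.06e-05).

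Of 13 neuronal calcium sensor genes, 3 were tested between the hair cells. None was called higher in OHC-like cells (16.8% of 9500 genes) and 1 was called lower (17.2%), *Hpcal1*. In SGN-like cells 12 were tested against other cells that are no hair cells, with 9 called higher (37.2% of 14933 genes) and 2 lower (43.6%) on 1 residual degree of freedom, and a median log2 difference of 3.18 against −0.15 over all genes. All 9 of the other S100 genes tested were called lower in SGN-like cells, with a median of −4.31.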

How the data were processed

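Per the labels and methods, libraries were made with the 10x Chromium 3′ v3.1 kit. The authors deposited raw UMI counts per gene and barcode with no normalization. The matrix headers name cellranger 5.0.1, the submitters' processing notes Cell Ranger 6.0.1 and mm10. The P14 cells alone and the anchor-integrated P28 cells were clustered in Seurat 5.3.0 (R 4.3.3) on 2000 variable genes without the members and listed genes, with 30 principal components and Louvain resolution 1. A class name needed 3 or more markers, and classes with under 10 cells in a library were left out. UMIs were summed per class and library and tested with edgeR 4.0.16 (quasi-likelihood, TMM, default filter, Benjamini-Hochberg threshold 0.05) with a term for the library. In each comparison both sums derive from the same animals, so the libraries pair the sums. Deviations from the class mean correlated by 0.51, 0.41 and 0.36 for OHC-like and IHC-like cells, the highest of the comparisons. They were lowest for SC/SGC-like cells, at 0.023, 0.041 and 0.037. With 1 library at P14 these deviations also hold any difference between the ages. No test was made between ages. Intervals are exact and cover counting error only. The tests were run on simulated data first, where 74.5% of 200 genes changed 4-fold were recovered for OHC-like against IHC-like cells. DESeq2 1.42.0, other filters and left-out libraries were alternatives. Members and gene lists were chosen with earlier results of these data known. For each member the 3 genes most like it were named by Pearson's r of log2(CPM + 10), and the listed EF-hand genes by the size of their called change between the hair cell classes. Results of items withheld for evaluation are not reported here.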

Additional observations from a re-analysis of the deposited data

Results flagged for a closer look

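In 10 results the P14 library lay on one side of 0 and both P28 libraries on the other. With 1 library at P14, none of these differences between ages was tested. All values are log2 ratios of CPM + 1, given for P14 and then for P28 replicates 1 and 2. Between OHC-like and IHC-like cells, *Pvalb* was at −0.264 against 0.501 and 0.37, and *S100b* at −1.95 against 0.751 and 0.869. The P14 value of *S100b* rests on 14 UMIs in OHC-like and 8 in IHC-like cells. Against cells other than hair cells, *Calb2* in OHC-like cells was at 4.63 against −1.02 and −0.702, and *Calb1* in IHC-like cells at 5.32 against −2.08 and −1.9. The P14 value of *Calb1* rests on 25 UMIs in 2 IHC-like cells and 8 UMIs in the pool. The pool of other cells held SGN-like cells at P28 only.

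In SC/SGC-like cells, which at P14 were the *Mog*-led cells, *Pvalb* was at 1.64 against −1.91 and −3.02 and *Calb2* at 1.88 against −2.54 and −2.66. The P14 values rest on 5 and 4 UMIs in the *Mog*-led cells. In DC/PC-like cells *Pvalb* was at 2.15 against −4.68 and −8.48, *Calb1* at 2.5 against −1.72 and −3.33, and *Calb2* at 1.29 against −6.32 and −2.9. These rest on 33, 5 and 0 UMIs of *Pvalb*, 4, 1 and 0 of *Calb1* and 14, 2 and 9 of *Calb2* in the DC/PC-like cells, so the values of P28 replicate 2 for the first 2 genes are set by the added 1 CPM. *S100a1* in DC/PC-like cells was at −0.175 against 0.858 and 1.27.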

How the results depend on the processing

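Of the alternative values of the members' log2 differences, 425 kept their side of the threshold, 49 gained a call, 23 lost one and 8 reversed. A reversal was counted only where the reported or the alternative fit called the member. The 425 can therefore hold changes of direction without a call. The causes were not tested. Over all genes, the fit of OHC-like against IHC-like cells called 2153 of 17329 higher without a filter. It called 866 of 4297 higher with 10 UMIs and 783 of 9500 without the replicate block. Without the P14 library it called 2364 of 9990 higher and 2556 lower. Ranges for the other comparisons are given below. Counts of members called are given with the reported count first. A count without the share over all genes of the same fit is no result about the members. OHC-like against IHC-like, higher (2): 4 without a filter, 1 with 10 UMIs required in every sum, 1 without the replicate block, and 2 to 4 with 1 library left out; lower (1): 1 to 2 with 1 library left out. OHC-like against cells other than hair cells, higher (2): 1 with 10 UMIs, 4 without SGN-like cells, 4 with at most 3000 genes and 15000 UMIs, 1 to 3 with 1 library left out; lower (1): 2 with DESeq2, its size factors, no filter, 10 UMIs, no SGN-like cells, 3000 genes, 30% mitochondrial UMIs, thinning to 1000 UMIs or no highest doublet scores, and 1 to 3 with 1 library left out. IHC-like, higher (1): 2 with DESeq2, no filter, 30% mitochondrial UMIs or no highest doublet scores, 3 without SGN-like cells, with 3000 genes or thinned, 1 to 3 with 1 library left out; lower (2): 1 with 10 UMIs, 1 to 3 with 1 library left out. SC/SGC-like, higher (0): 2 without SGN-like cells; lower (1): 2 without a filter, 0 with DESeq2, 10 UMIs, no replicate block or 30% mitochondrial UMIs, 0 to 3 with 1 library left out. DC/PC-like, higher (1): 0 without the block or with 30% mitochondrial UMIs, 1 to 2 with 1 library left out; lower (0): 1 without a filter, with 3000 genes, thinned or without the highest doublet scores, 0 to 2 with 1 library left out. In the first 4 of these fits for lower calls, 1895 of 21411, 1102 of 10995, 503 of 7283 and 1325 of 11915 genes were called lower in DC/PC-like cells. SGN-like, higher (5): 4 without the replicate block, with 30% mitochondrial UMIs or without the highest doublet scores, other counts within 1.5 times of the reported one being left out here. In these SGN-like fits 5408 of 14933, 5653 of 15307 and 5429 of 14914 genes were called higher. IPhC/IB-like, higher (1): 0 with each library clustered alone; lower (5): 3 with 10 UMIs, 3000 genes, libraries clustered alone or thinning, 2 without SGN-like cells.

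Reversed log2 differences were *Calb2* in OHC-like (−0.73, range to 1.89 over the libraries left out) and *Calb1* in IHC-like cells (−2.58, range to 2.39) against other cells without the P14 library, a fit with 1 residual degree of freedom, *Ocm* in SGN-like cells without the highest doublet scores (−0.14), *Pvalb* in SC/SGC-like cells without SGN-like cells (1.93), *Ocm* in DC/PC-like cells with 3000 genes (−0.98), *Pvalb* and *Calb2* in IPhC/IB-like cells without SGN-like cells (0.078 and 0.095), and *S100b* there with 30% mitochondrial UMIs (1.09).

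The P14 level over the P28 mean moved for *Ocm* in OHC-like cells from 1.81 to 1.72 (3000 genes), 1.73 (30% mitochondrial UMIs), 1.69 (thinned) and 1.70 (doublet scores). *Calb1* there moved from 4.51 to 1.77 (3000 genes), 3.80 (30% mitochondrial UMIs) and 3.24 (thinned), and *Pvalb* in IHC-like cells from 5.85 to 4.69, 5.43 and 4.97. *Calb2* in IHC-like cells moved from 1.03 to 1.11 (3000 genes) and 1.10 (doublet scores), and *S100a1* in ISC/HeC/OSC-like cells from 0.764 to 0.554 (3000 genes) and 0.641 (thinned).

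Counts over all genes moved more. Between OHC-like and IHC-like cells 1592 genes were called higher and 1634 lower, against 428 and 390 after thinning, 783 and 939 without the replicate block, 888 and 1145 by DESeq2 and 2364 and 2556 without the P14 library. Against other cells, the higher calls ranged from 1031 (without P28 replicate 1) to 4634 (without the P14 library; 3119 as reported) for OHC-like, from 713 (without P28 replicate 1) to 3263 (without the P14 library) for IHC-like, from 2329 (3000 genes) to 5653 (30% mitochondrial UMIs; 5557 as reported) for SGN-like, from 58 (10 UMIs) to 588 (without the P14 library) for SC/SGC-like, from 356 (thinned) to 1240 (without the P14 library) for DC/PC-like, and from 326 (libraries clustered alone) to 3722 (30% mitochondrial UMIs; 3093 as reported) for IPhC/IB-like cells, over all alternatives run. Lower calls against other cells ranged from 1650 of 12967 (without P28 replicate 1) to 5821 of 15098 (without the P14 library) for OHC-like cells. IHC-like cells had 884 of 4382 (10 UMIs) to 4513 of 15025 (without the P14 library). SC/SGC-like cells had 6 of 723 to 871 of 14654, and DC/PC-like cells 269 of 2681 to 2199 of 14723, in the same fits. IPhC/IB-like cells had 822 of 14829 (libraries clustered alone) to 4609 of 15223 (30% mitochondrial UMIs). SGN-like and IPhC/IB-like cells were in 2 libraries, so none was left out there.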
